A study of Mus musculus with 6 samples.

Results

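The genes described here are 10 genes of glucose entry, glycolysis and lactate metabolism: Slc2a1, Hk1, Hk2, Pfkp, Pgk1, Pkm, Ldha, Ldhb, Mpc1 and Mpc2. They were chosen by name for their place in this pathway, are 10 of the 43274 genes in the deposited tables, and all 10 passed the limit on low counts that left 16368 genes to test. They were measured by RNA-seq in bulge SCs, the stem cells of the hair follicle, sorted by FACS as CD34+ cells with high α6 integrin from mouse epidermis on postnatal day 21. Mice of the 3 control libraries carried K5-Cre and 1 floxed allele of Ilk (genotype label ILK +/-), and those of the 3 ILK-K5 libraries carried K5-Cre and 2 floxed alleles (ILK -/-). Ilk encodes integrin-linked kinase, an adaptor that links integrins to the actin cytoskeleton. The K5 promoter drives Cre in basal keratinocytes, so controls and ILK-K5 mice share Cre activity in the epidermis and its follicles. The labels do not say whether the libraries came from separate mice, and p-values therefore measure only the spread between libraries.

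Glucose enters keratinocytes through facilitative transporters such as GLUT1, the product of Slc2a1, and is trapped in the cell as glucose 6-phosphate by hexokinases. Phosphofructokinase, phosphoglycerate kinase and pyruvate kinase carry out later steps of glycolysis. Pyruvate is then either reduced to lactate by lactate dehydrogenase or imported into mitochondria by the carrier that Mpc1 and Mpc2 form together. Hair follicle SCs are known for a high rate of lactate production, and in mice the activation of these cells depends on Ldha and is promoted by loss of Mpc1.

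Counted reads ranged from 8228019 to 11969072 per library, and 1 read equals 0.726 to 1.52 normalized counts, depending on the library. A normalized count is a read count on the scale set by the size factor of each library. Mitochondrial genes took 11.5% to 27.6% of the reads. The count of Ilk did not serve to check the genotypes. It was 10.6, 16.7 and 38.5 normalized counts in controls and 14.8, 30.9 and 29.2 in ILK-K5 libraries, with overlapping groups, and genes on the opposite strand cover 89.7% of the exon bases of Ilk. In their cell type markers the groups differed. Of the bulge SC markers tested, 1 of 9 was lower in ILK-K5 (Cd34, log2 fold change -1.90, limma adjusted p = 0.0239) and none was higher, while macrophage markers were higher in 14 of the 14 tested. The summed level of the macrophage list was 384 to 640 normalized counts in controls and 13751 to 17783 in ILK-K5 libraries.

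The start regions of 4 of the genes are shown because their counts carry the results below: Slc2a1, Pgk1 and Ldha had the lowest unadjusted p-values of the 10 genes, and Hk2 had the lowest estimate. Each run holds the bases upstream of a RefSeq start of transcription on GRCm38.p6, 5′ to 3′ on the strand of the gene. The run of Ldha lies within the gene as GENCODE places it (chr7:46841475-46855627), and that of Slc2a1 stops before the first exon annotated in GENCODE. The runs lie at chr4:119108495-119108710 on the plus strand for Slc2a1, chrX:106186850-106187099 on the plus strand for Pgk1, chr7:46845554-46845803 on the plus strand for Ldha and chr6:82774455-82774704 on the minus strand for Hk2. Capitals mark ACGTG on either strand (CACGT is the same motif read from the other strand). ACGTG is a common form of the core of the site at which hypoxia-inducible factors bind, and other forms were not counted. The longer CACGTG, which contains ACGTG, is the E-box bound by Myc with Max.
Slc2a1: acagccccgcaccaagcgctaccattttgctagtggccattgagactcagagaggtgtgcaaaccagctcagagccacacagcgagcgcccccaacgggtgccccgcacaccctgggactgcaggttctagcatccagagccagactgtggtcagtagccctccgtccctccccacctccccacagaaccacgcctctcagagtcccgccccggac
Pgk1: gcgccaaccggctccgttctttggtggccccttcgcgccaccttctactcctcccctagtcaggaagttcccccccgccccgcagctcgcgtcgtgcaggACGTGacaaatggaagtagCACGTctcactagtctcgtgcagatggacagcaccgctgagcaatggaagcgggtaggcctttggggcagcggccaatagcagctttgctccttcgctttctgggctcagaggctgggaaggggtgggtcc
Ldha: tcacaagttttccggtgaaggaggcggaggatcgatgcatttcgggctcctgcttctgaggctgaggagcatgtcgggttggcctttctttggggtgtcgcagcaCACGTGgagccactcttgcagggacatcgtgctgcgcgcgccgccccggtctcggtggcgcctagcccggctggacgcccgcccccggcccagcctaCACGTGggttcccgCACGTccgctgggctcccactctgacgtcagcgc
Hk2: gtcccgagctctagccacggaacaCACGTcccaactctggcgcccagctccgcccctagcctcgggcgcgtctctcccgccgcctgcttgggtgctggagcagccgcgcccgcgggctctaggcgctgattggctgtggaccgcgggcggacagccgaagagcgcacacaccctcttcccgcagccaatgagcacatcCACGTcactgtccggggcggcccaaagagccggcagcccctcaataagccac
In windows of 300 bases, 250 before and 50 after the start, ACGTG was found in 19.6% and CACGTG in 7.15% of 32851 mouse promoters. The 10 genes have 14 such windows, since 4 genes have a second start, and ACGTG lay in 6 of the 14, each of another gene. Ldha held 3 sites at its first RefSeq start, of which 2 were CACGTG, Hk2 and Pgk1 held 2 each, and Slc2a1 held 1 across the end of the run shown. Hk1 and Pkm held 2 each at a second annotated start. No match was found in the windows of Pfkp, Ldhb, Mpc1 and Mpc2, which says only that these letters are not there. Whether any site was bound was not measured.

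Of the 10 genes, 1 was higher in ILK-K5 at an adjusted p of at most 0.05 (Slc2a1) and 0 were lower (limma with Benjamini-Hochberg adjustment over all genes tested). Of all genes tested, 2.93% were called higher and 0.599% lower. At an unadjusted p under 0.05, 3 of the 10 were higher (Slc2a1, Pgk1 and Ldha) and 0 lower, against 8.18% higher and 4.11% lower of all genes. DESeq2 on the recovered reads also called Slc2a1 only, with 4.72% of all genes called higher and 1.71% lower. edgeR (2.58% higher, 0.532% lower) and limma-voom (2.0% higher, 0.342% lower) called 0 of the 10. The estimate was above 0 for 7 of the 10 and below 0 for Hk1, Hk2 and Mpc2, and 50.5% of all genes had an estimate above 0. The median log2 fold change was 0.41 over the 10 genes and 0.01 over all genes. The libraries of the 2 genotypes did not overlap for 2 of the 10, Slc2a1 and Pgk1, both higher in ILK-K5, and 10.9% of all genes were separated in this direction and 6.95% in the other.

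**Figure D1:**
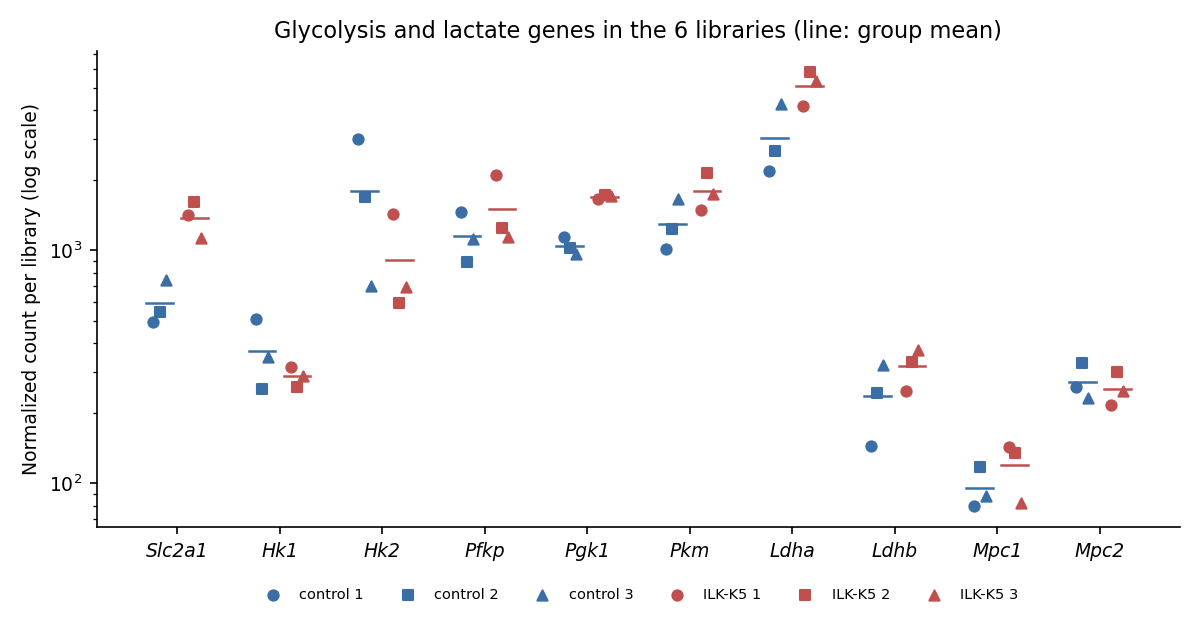
Normalized counts (log axis) of the 10 genes in each library, with control libraries in blue, ILK-K5 libraries in red, replicates 1 to 3 as circle, square and triangle, and a line at each group mean. The groups are separate for Slc2a1 and Pgk1, and the points of the other 8 genes overlap.

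**Figure D2:**
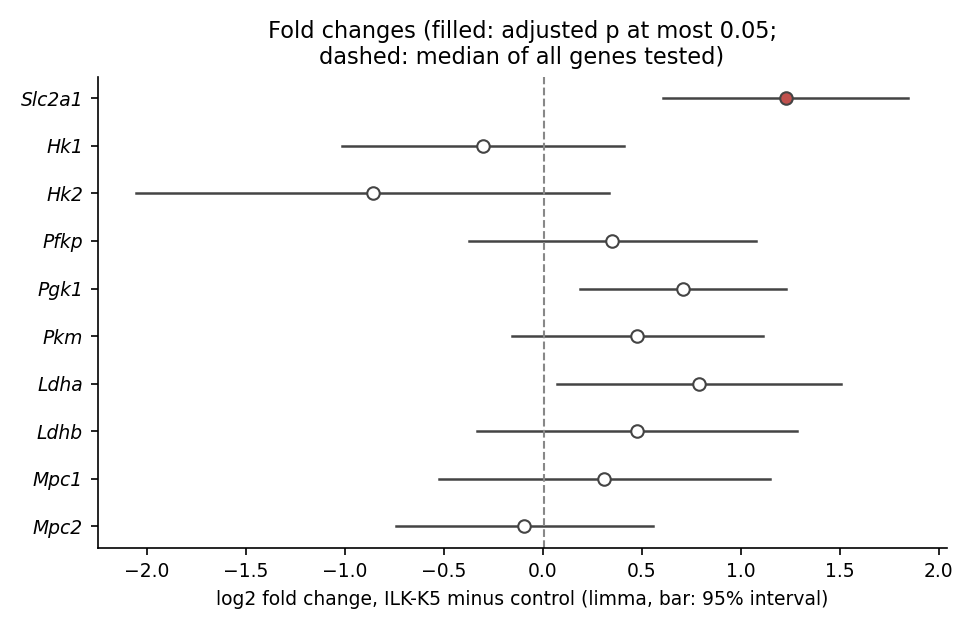
log2 fold changes of the 10 genes, ILK-K5 minus control, with 95% intervals from limma, a filled point where the adjusted p is at most 0.05 and a dashed line at the median of all genes tested. The intervals of Slc2a1, Pgk1 and Ldha lie above 0, and Slc2a1 alone has a filled point.

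Slc2a1 encodes GLUT1, the main glucose transporter of keratinocytes. The gene lies at chr4:119108711-119137983 on the plus strand (GRCm38). It had 493, 546 and 744 normalized counts in controls 1 to 3 and 1414, 1612 and 1128 in ILK-K5 1 to 3. All ILK-K5 libraries thus lay above all controls. Means were 594 ± 132 in controls and 1385 ± 243 in ILK-K5 libraries (SD, n = 3 each), and the fold change was 2.34, with a 95% interval of 1.53 to 3.59 (log2 fold change 1.23, SE 0.27, limma adjusted p = 0.0437). This call was close to its threshold. The adjusted p was 0.00424 in DESeq2 but 0.0572 in edgeR, 0.0578 in limma-voom and 0.0549 with a pseudocount of 0.1. Of the 6 fits that left out 1 library, the call was kept only without control 3 (adjusted p = 0.0319, with 3.38% of genes called higher and 0.567% lower). It was lost without control 1 (0.094), control 2 (0.146), ILK-K5 1 (0.145), ILK-K5 2 (0.235) and ILK-K5 3 (0.111), where the log2 fold change was 1.10 to 1.37.

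The names that the submitters gave the libraries share 1 ending for replicates 2 and 3 of both genotypes and another for replicate 1, and the labels do not say what the endings stand for. Between the replicate 1 libraries Slc2a1 differed by 1.52 on the log2 scale, and between the means of the other libraries by 1.08. With replicates 2 and 3 alone, the adjusted p of Slc2a1 was 0.167 and no gene of the 10 was called, with 2.46% of 16033 genes called higher and 0.455% lower. With a term for the ending of the names, the adjusted p of Slc2a1 was 0.014, and Slc2a1 was the 1 gene of the 10 called, beside 5.17% of all genes called higher and 1.75% lower. A change in the number of cells of a type and a change in RNA per cell cannot be told apart in these bulk libraries. The part of the macrophage transcripts in the difference of Slc2a1 was not tested.

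Hexokinases phosphorylate glucose in the first step after its entry. Hk2, the inducible isozyme, lies at chr6:82725025-82774454 on the minus strand. It had 3013, 1689 and 702 normalized counts in controls and 1440, 593 and 698 in ILK-K5 libraries. The control libraries spanned a 4.29-fold range, the widest of the 10 genes, and control 3 lay among the ILK-K5 values. The log2 fold change was -0.86 with an SE of 0.53, and the 95% interval of the fold, 0.241 to 1.26, includes no change (limma adjusted p = 0.644). The estimate was -0.37 without control 1 and -1.42 without control 3. Hk1, the isozyme found in most tissues, lies at chr10:62268855-62379908 on the minus strand. It had 506, 254 and 348 normalized counts in controls and 316, 259 and 289 in ILK-K5 libraries, with the ILK-K5 values inside the range of the controls. Its log2 fold change was -0.30 ± 0.32 (SE, limma adjusted p = 0.836), and it was -0.048 without control 1 and -0.54 without control 2.

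Per length, Hk2 was the more abundant isozyme in every library. The ratio of Hk2 to Hk1 in FPKM, with 0.1 added to both, was 8.40, 9.24 and 2.84 in controls and 6.36, 3.20 and 3.38 in ILK-K5 libraries. Control 3 had the lowest ratio of all 6. The size of the ratio depends on the lengths used. These were 8532 bases for Hk1 and 5969 for Hk2, while the longest coding transcripts have 4278 and 5513. In normalized counts, without length, Hk2 also lay above Hk1 in every library. The mean log2 ratio was 2.59 ± 0.94 in controls and 2.04 ± 0.55 in ILK-K5 libraries (SD, n = 3), and the difference of -0.56 was smaller than the spread of the controls (2-sided exact permutation test, p = 0.4). With 3 against 3 libraries the smallest p this test can give is 0.1. Tests on 3 ratios were made, and the p adjusted over them was 0.4 for each.

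Pfkp encodes the platelet-type subunit of phosphofructokinase, the enzyme of the committed step of glycolysis. The gene lies at chr13:6579768-6648777 on the minus strand. It had 1466, 888 and 1115 normalized counts in controls and 2118, 1253 and 1137 in ILK-K5 libraries. ILK-K5 1 lay above the other 5 libraries, which overlapped. The log2 fold change was 0.35 ± 0.32 (SE, limma adjusted p = 0.802), and it was 0.076 without ILK-K5 1, 0.18 without control 2 and 0.54 without control 1. Pitrm1, on the opposite strand, covers 5.58% of its exon bases, and reads there may belong to either gene.

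Pgk1 encodes phosphoglycerate kinase, which makes the first ATP of glycolysis. The gene lies at chrX:106187100-106203699 on the plus strand. It had 1140, 1025 and 968 normalized counts in controls and 1670, 1723 and 1716 in ILK-K5 libraries. The libraries within each genotype lay close together, within a 1.18-fold range in controls and a 1.03-fold range in the ILK-K5 group, and the groups were separate. The fold change was 1.63 with a 95% interval of 1.14 to 2.34 (log2 fold change 0.71, SE 0.23). The difference had an unadjusted p of 0.0128 and did not pass adjustment over all genes (limma adjusted p = 0.185). It passed in none of the fits with other settings or with 1 library left out, where the adjusted p was 0.070 to 0.601.

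Reads on Pgk1 could not be fully told from reads on its copies. The processed pseudogenes Pgk1-rs7 (chr12:10898986-10900240) and Gm5537 (chr3:58102996-58104247) are identical to a Pgk1 transcript over 1255 and 1252 bases. Together they took 46.0% to 60.6% of the reads on Pgk1 and the copies. Whether a read that matched more than 1 place was counted once or at each place is not known, so sums may hold reads more than 1 time. Summed with both, the level was 2893, 2257 and 1794 normalized counts in controls and 4061, 3475 and 3224 in ILK-K5 libraries. The sums of the genotypes did not overlap either, and the log2 difference was 0.65, with an adjusted p of 0.360 in limma.

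**Figure D3:**
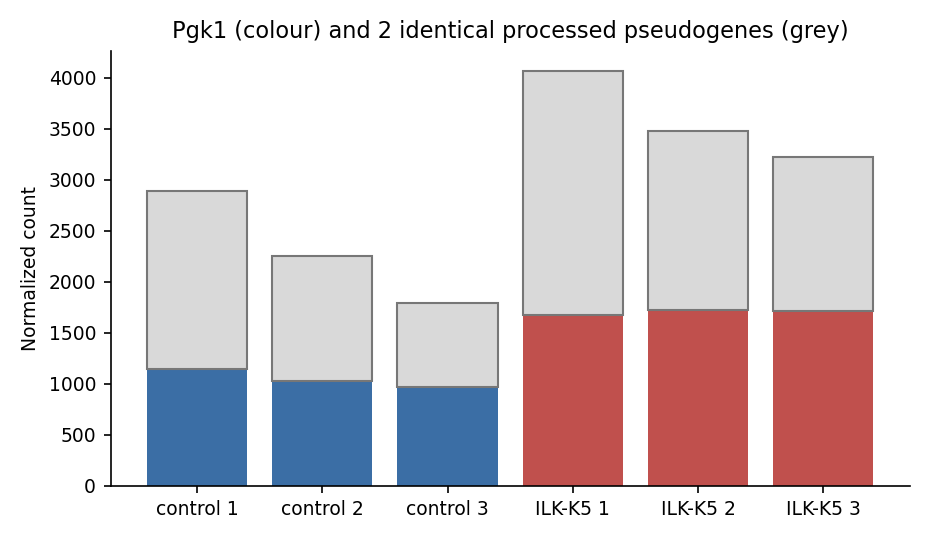
Normalized counts of Pgk1 (blue in control, red in ILK-K5 libraries) with the counts of its 2 identical processed pseudogenes stacked on top in grey, for each library. The total is 1794 to 2893 in controls and 3224 to 4061 in ILK-K5 libraries, and both the coloured parts and the totals are separate between genotypes.

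Pkm encodes pyruvate kinase of muscle type, the last enzyme of glycolysis, and lies at chr9:59656368-59679375 on the plus strand. It had 1017, 1236 and 1658 normalized counts in controls and 1498, 2146 and 1751 in ILK-K5 libraries. Control 3 lay above ILK-K5 1, and the groups overlapped. The log2 fold change was 0.48 ± 0.28 (SE, limma adjusted p = 0.614), and it was 0.31 without control 1. A gene on the same strand shares 15.3% of the exon bases of Pkm. The isoforms M1 and M2, which differ by 1 exon, were not separated in these gene counts.

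Ldha encodes the A subunit of lactate dehydrogenase, which favours the reduction of pyruvate to lactate. The gene lies at chr7:46841475-46855627 on the plus strand. It had 2198, 2685 and 4272 normalized counts in controls and 4185, 5821 and 5335 in ILK-K5 libraries. The groups overlapped only in that control 3 lay just above ILK-K5 1. Means were 3052 ± 1084 in controls and 5114 ± 840 in ILK-K5 libraries (SD, n = 3), and the log2 fold change was 0.79 with an SE of 0.32. The 95% interval of the fold was 1.05 to 2.83, the unadjusted p was 0.0340, and the difference did not pass adjustment (limma adjusted p = 0.328). Between the replicate 1 libraries the log2 difference was 0.93, and between the others 0.72.

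Ldhb encodes the B subunit, which favours the oxidation of lactate, and lies at chr6:142490249-142507957 on the minus strand. It had 144, 245 and 322 normalized counts in controls and 248, 330 and 374 in ILK-K5 libraries. The groups overlapped, and control 1 was the lowest library. The log2 fold change was 0.48 ± 0.36 (SE, limma adjusted p = 0.745), and it was 0.16 without control 1 and 0.73 without control 3. In FPKM with 0.1 added, the ratio of Ldha to Ldhb was 7.98, 5.75 and 6.95 in controls and 8.83, 9.25 and 7.48 in ILK-K5 libraries. Ldha was thus the more abundant subunit transcript in all 6 libraries. The mean log2 ratio was 2.77 ± 0.24 in controls and 3.08 ± 0.16 in the ILK-K5 group (SD, n = 3), a difference of 0.31 (2-sided exact permutation test, p = 0.2). ILK-K5 3 lay below control 1, so the groups overlapped.

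Mpc1 and Mpc2 encode the subunits of the mitochondrial pyruvate carrier. Mpc1 lies at chr17:8282904-8297661 and Mpc2 at chr1:165460637-165481214, both on the plus strand. Mpc1 had 80.1, 117 and 87.8 normalized counts in controls and 143, 134 and 81.8 in ILK-K5 libraries. ILK-K5 3 lay with the lowest controls. The log2 fold change was 0.31 ± 0.37 (SE, limma adjusted p = 0.866), and it was 0.16 without ILK-K5 1, 0.20 without control 1, 0.47 without control 2 and 0.56 without ILK-K5 3. Its difference was 0.83 on the log2 scale between the replicate 1 libraries and 0.047 between the others. The gene 4930506C21Rik, on the opposite strand, covers 23.1% of the exon bases of Mpc1, and reads there may belong to either gene.

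Mpc2 had 259, 327 and 231 normalized counts in controls and 216, 299 and 248 in ILK-K5 libraries, with overlapping groups. Its log2 fold change was -0.09 ± 0.29 (SE, limma adjusted p = 0.955), and the 95% interval of the fold was 0.598 to 1.47. This estimate changed sign with the scaling: relative to total reads outside the mitochondrial chromosome it was 0.048. The ratio of Mpc1 to Mpc2 in FPKM with 0.1 added was 1.09, 1.26 and 1.33 in controls and 2.30, 1.57 and 1.16 in ILK-K5 libraries. The mean log2 ratio was 0.29 ± 0.15 and 0.69 ± 0.50 (SD, n = 3), and the groups overlapped (2-sided exact permutation test, p = 0.3). The difference was 1.08 between the replicate 1 libraries and 0.06 between the others. In normalized counts Mpc2 lay above Mpc1 in every library, so which of them is the more abundant depends on the lengths used.

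**Figure D4:**
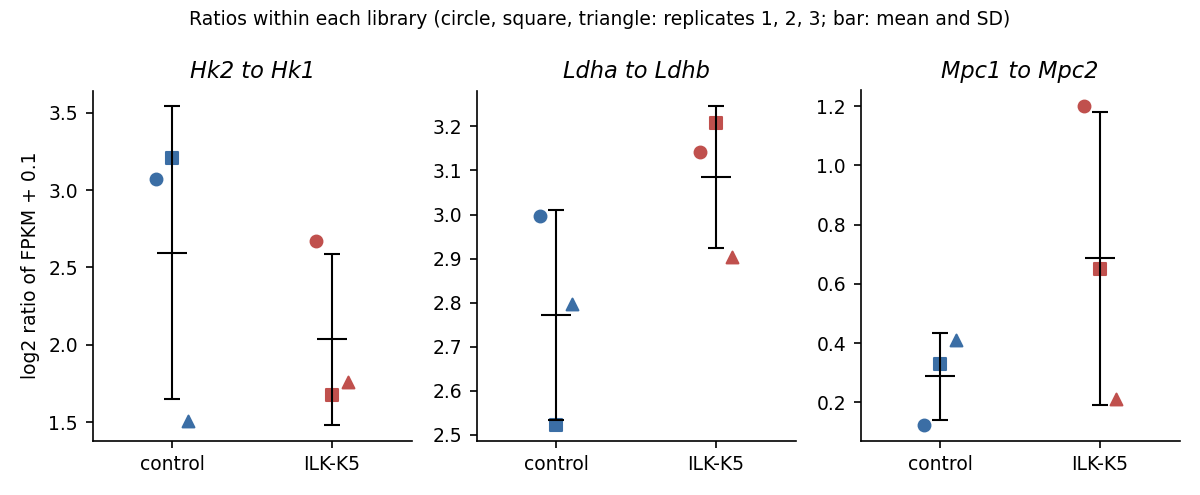
log2 ratio of FPKM + 0.1 of Hk2 to Hk1, Ldha to Ldhb and Mpc1 to Mpc2 in each library, with control in blue, ILK-K5 in red, replicates 1 to 3 as circle, square and triangle, and bars for the mean and SD. The groups overlap in all 3 ratios, and for Mpc1 to Mpc2 the replicate 1 libraries hold both the lowest and the highest value.

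Levels of different genes were compared in FPKM, which divides by gene length, and for Pgk1 the reads on its own locus alone were used at first. In the control libraries Ldha was the highest at 105 ± 37.3 FPKM (SD, n = 3), above every value of Pkm (51.4 ± 12.9), followed by Pgk1 (47.7 ± 4.02), Hk2 (30.9 ± 19.9), Slc2a1 (21.4 ± 4.75), Ldhb (15.5 ± 5.84) and Pfkp (12.6 ± 3.18). Neighbours from Pkm to Pfkp overlapped in their libraries. Mpc1 (4.68 ± 0.96), Hk1 (4.44 ± 1.53) and Mpc2 (3.80 ± 0.69) came last, below every value of Pfkp, and overlapped each other. In the ILK-K5 libraries the order was Ldha at 176 ± 28.9, Pgk1 at 77.8 ± 1.32, Pkm at 71.0 ± 12.9, Slc2a1 at 49.8 ± 8.75, Ldhb at 20.7 ± 4.17, Pfkp at 16.4 ± 5.85 and Hk2 at 15.6 ± 7.93 FPKM, then Mpc1 at 5.90 ± 1.64, Mpc2 at 3.56 ± 0.58 and Hk1 at 3.47 ± 0.34. Pgk1 overlapped Pkm, and Ldhb, Pfkp and Hk2 overlapped their neighbours among themselves, while Slc2a1 was separate from both its neighbours here but not in controls. The place of Pgk1 depends on its copies, and reads counted at more than 1 place would raise the sum with them. With the reads on both copies added, at the length of Pgk1, its level was 106 ± 25.2 FPKM in controls and 164 ± 19.6 in ILK-K5 libraries (SD, n = 3), which overlapped Ldha and lay above every value of Pkm in both genotypes. The lengths behind FPKM were those of all annotated exons for 6 of the 10 genes and shorter for Slc2a1, Pfkp, Pkm and Ldha. For Mpc2 the length was 7344 bases, while its longest coding transcript has 1025. The gap was also wide for Hk1 (8532 against 4278), Pfkp (9395 against 4145) and Mpc1 (2082 against 961). A level per length of such a gene is lowered by exons that may not be used here. The places of these genes in the order therefore depend on the lengths used.

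The other genes of the pathway were followed in 9 lists, which hold 106 genes, of which 95 were tested. With limma, 0 were called in either direction, against 2.93% of all genes called higher and 0.599% lower. At an unadjusted p under 0.05, 10 were higher and 5 lower, against 8.18% higher and 4.11% lower of all genes. The same shares stand beside the counts of single lists below. edgeR and limma-voom also called 0, and DESeq2 called 4: Slc16a3 and Ddit4 higher, Slc2a12 and Adm lower. Of all genes, DESeq2 called 4.72% higher and 1.71% lower. The fit with a term for the ending of the library names called the same 4 genes, beside 5.17% of all genes called higher and 1.75% lower. The median log2 fold change over the 95 genes was 0.16.

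Beside Slc2a1, 7 of the 10 genes of glucose entry and phosphorylation were tested, with a median log2 fold change of 1.48. This median rests on genes with few reads: the list summed to 203 to 282 normalized counts in controls and 186 to 268 in ILK-K5 libraries. Slc2a12 encodes a glucose transporter and had 140, 89.7 and 169 normalized counts in controls and 55.8, 45.5 and 43.8 in ILK-K5 libraries. Its groups were separate (log2 fold change -1.40, limma adjusted p = 0.103, DESeq2 adjusted p = 0.0107), but 407 bases of its sequence are shared with Tbpl1, and its count is uncertain. Slc2a4, the insulin-responsive transporter GLUT4, had 0.965, 0 and 5.08 normalized counts in controls and 11.4, 30.1 and 21.4 in ILK-K5 libraries (limma adjusted p = 0.135).

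Of the other glycolytic enzymes, 12 of 16 were tested, and the median log2 fold change was 0.69, with 2 higher and 0 lower at an unadjusted p under 0.05. Aldoa, an aldolase that splits fructose 1,6-bisphosphate, had 797, 751 and 1170 normalized counts in controls and 1609, 1424 and 1269 in ILK-K5 libraries. Its groups did not overlap (log2 fold change 0.68 ± 0.27, SE, limma adjusted p = 0.313). Eno1, the enolase of most tissues, had a log2 fold change of 0.96 ± 0.40 (SE, adjusted p = 0.351), and 33.0% to 46.8% of the reads on Eno1 and its copies lay on the copies. Gapdh, chosen after its values were seen as the most abundant gene of this list, had 1709, 2334 and 5750 normalized counts in controls and 2831, 8659 and 7349 in ILK-K5 libraries. These overlapped, and 71 near-identical copies in the table took 70.7% to 80.3% of the reads on Gapdh and its copies.

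Enzymes that set the level of fructose 2,6-bisphosphate, the activator of phosphofructokinase, had a median log2 fold change of -0.14 over 5 genes. Pfkfb4 had 2.89, 4.56 and 17.4 normalized counts in controls and 17.1, 30.9 and 35.1 in ILK-K5 libraries (adjusted p = 0.327). Tigar, which removes fructose 2,6-bisphosphate, was estimated at -0.64 ± 0.37 on the log2 scale (SE, limma adjusted p = 0.610). In the pentose phosphate pathway, which branches off after the hexokinase step, the median over 7 genes was 0.03. Pgd and G6pdx, the enzymes that yield NADPH, were at 1.38 ± 0.50 and 1.28 ± 0.49 (SE, limma adjusted p = 0.252 and 0.286).

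Lactate leaves cells through monocarboxylate transporters, and 6 of the 8 genes of this list were tested, with a median of 0.42. Slc16a3 encodes MCT4, the exporter of highly glycolytic cells. It had 0, 10.6 and 6.53 normalized counts in controls and 50.1, 59.4 and 27.3 in ILK-K5 libraries. The groups were separate, and the adjusted p was 0.120 in limma and 0.0138 in DESeq2. Slc16a7, which encodes MCT2, had 438, 798 and 498 normalized counts in controls and 306, 347 and 363 in ILK-K5 libraries, also without overlap (log2 fold change -0.72 ± 0.30, SE, limma adjusted p = 0.348).

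Pyruvate dehydrogenase and its control genes had a median of 0.04 over 12 of 13 genes tested, with 0 higher and 2 lower at an unadjusted p under 0.05. Both were kinases that inactivate the complex. Pdk2 had 614, 500 and 546 normalized counts in controls and 273, 305 and 405 in ILK-K5 libraries, and the groups were separate (log2 fold change -0.77 ± 0.27, SE, limma adjusted p = 0.233). Pdk4 had 21.2, 24.3 and 24.7 normalized counts in controls and 9.11, 4.63 and 11.7 in ILK-K5 libraries (limma adjusted p = 0.385). The citric acid cycle had a median of 0.10 over 17 genes, and none had an unadjusted p under 0.05. Dlst, a subunit of the 2-oxoglutarate dehydrogenase complex, had a log2 fold change of 0.49 ± 0.26 (SE, limma adjusted p = 0.544).

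Genes of the hypoxia response had a median log2 fold change of 0.12 over 20 genes, with 2 higher and 1 lower at an unadjusted p under 0.05. Ddit4, a stress-induced inhibitor of mTORC1, had 108, 254 and 371 normalized counts in controls and 441, 1083 and 1129 in ILK-K5 libraries. Every ILK-K5 library lay above the controls (log2 fold change 1.90 ± 0.51, SE, limma adjusted p = 0.0921, DESeq2 adjusted p = 0.00968). Adm, which encodes the peptide adrenomedullin, had 38.6, 57.8 and 45.0 normalized counts in controls and 10.2, 10.8 and 8.77 in ILK-K5 libraries. These groups were separate in the opposite direction (log2 fold change -2.12 ± 0.51, SE, limma adjusted p = 0.0617, DESeq2 adjusted p = 0.00279). In the Myc family the median was 0.29 over 9 genes, and the lowest p-values belonged to Mxd1 (0.52, adjusted p = 0.523) and Mycn (0.65, adjusted p = 0.723).

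**Figure D5:**
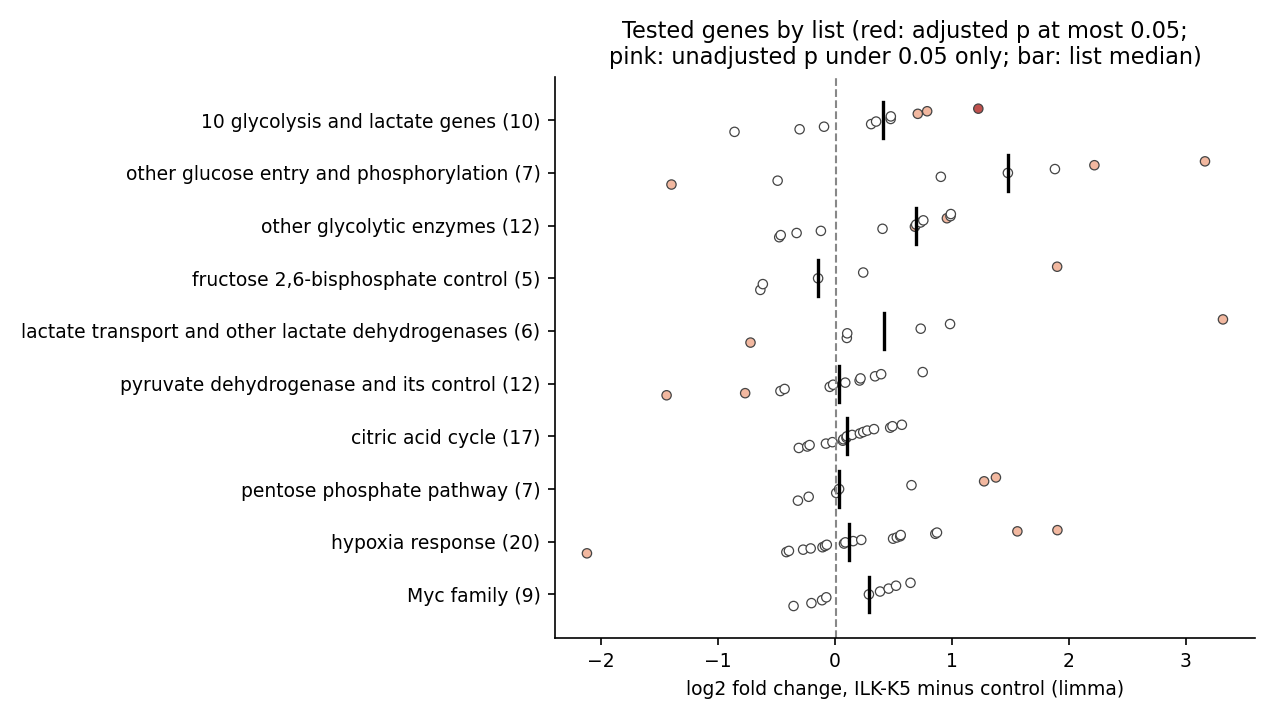
log2 fold changes (ILK-K5 minus control, limma) of every tested gene, 1 point per gene, in the 10 glycolysis and lactate genes and the 9 pathway lists, with a bar at each list median and a dashed line at the median of all genes. Slc2a1 is the only red point (adjusted p at most 0.05), and the pink points (unadjusted p under 0.05 only) lie on both sides of 0.

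Markers of other cell types stood as follows beside these values. Leukocyte markers were called higher in ILK-K5 in 7 of 7 tested genes, neutrophil markers in 2 of 4 and T cell markers in 1 of 5. Langerhans and dendritic cell markers were called higher in 2 of 6 and fibroblast markers in 1 of 4. No tested gene of these lists was called lower. The neutrophil genes called were S100a8 and S100a9. Ly6g, below the limit on low counts, had 11, 2 and 2 reads in controls and 0 in each ILK-K5 library. Retnlg, also below it, had 3, 0 and 0 reads in controls and 0 in each ILK-K5 library. Of the Langerhans and dendritic list, Epcam and Itgax were called, and Cd207, Flt3, Cd209a and Xcr1 were not. The leukocyte list summed to 43.4 to 133 normalized counts in controls and 4270 to 5882 in ILK-K5 libraries. Of the macrophage list, Fcgr1 had no read in any control library, and its most abundant gene was Lyz2. Melanocyte markers were called lower in 1 of 5 genes (Mitf) and differentiated keratinocyte markers in 1 of 8 (Lor). The melanocyte list summed to 680 to 1308 normalized counts in controls and 269 to 478 in ILK-K5 libraries. Mitf, its most abundant gene, had 1136, 868 and 596 in controls and 258, 192 and 254 in ILK-K5 libraries. The log2 estimates of 3 of the 5 lay above 0 (Tyrp1 3.29, Dct 0.60 and Pmel 0.20), with none called. The differentiated keratinocyte list summed to 4148 to 21907 in controls and 4891 to 7869 in ILK-K5 libraries. No gene was called among 8 basal keratinocyte markers, 3 endothelial, 1 skeletal muscle and 1 adipocyte marker tested or 10 cell cycle genes, at 2, 1, 0, 0 and 0 unadjusted p under 0.05, and no red blood cell marker passed the limit on low counts. Leukocytes are known to express genes of glycolysis as keratinocytes do. The part of these cells in the values above was not tested.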

How the data were processed

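RNA of sorted bulge SCs was amplified (Ovation RNA-Seq System V2), and paired reads were sequenced from Nextera XT libraries. According to the submitters' processing notes and the study's methods, reads were aligned to GRCm38 (TopHat2 2.0.14, Bowtie2 2.2.4) after removal of ribosomal reads and analysed in DESeq2 1.6.3. The counting program is not given in the sources used here, nor whether strand was used.

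The signal in the main table is the read count per gene divided by a size factor, as deposited by the authors. In every library 100% of the values were whole multiples of 1 read (tolerance 0.01), and reads were recovered from them. The FPKM values deposited by the authors were a constant per gene times these normalized counts. Lists of the authors' own comparison (fold changes and p-values) were not used. Reads themselves were not used, and intervals cover the spread between libraries. Of 43274 genes, 97.3% had a symbol in GENCODE M21, which also gave exons.

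Genotypes were compared with limma 3.58.1 (eBayes with a trend, R 4.3.3) on log2(normalized count + 1), over the 16368 genes whose mean reached 10 normalized counts, without covariates. p-values are two-sided and adjusted with Benjamini-Hochberg, threshold 0.05. Fold changes are on this scale and are understated for low genes. Ratios were tested by exact permutation. Code was tested on simulated data. edgeR 4.0.16, DESeq2 1.42.0 and limma-voom on recovered reads, other scalings, filters and pseudocounts, a replicate block, a term for the ending of the library names and 6 fits without 1 library were alternatives. Copies share at least 300 bases at 95% identity with a transcript. Tables and plots were made in Python 3.11.15.

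The 10 genes, the pathway and marker lists and the tests were chosen with earlier results of these data known. Named are all 10 genes, and in each pathway list every gene called, or otherwise the 2 with the lowest p. A gene that meets this rule is not reported here. Gapdh was named after its values were seen, and the fit that adds the reads on the copies of Pgk1 was chosen after seeing the data.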

Additional observations from a re-analysis of the deposited data

How the results depend on the processing

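Over all genes, the 479 higher and 98 lower calls became 772 and 280 in DESeq2, 846 and 286 with a term for the ending of the library names, and 848 and 269 with the replicate block. limma-voom gave 56 lower calls. With 1 library left out, higher calls numbered 217 to 554 and lower calls 32 to 93. Among the 10 genes, the count called higher was 0 in place of 1 with a pseudocount of 0.1, with no filter on low counts, in the FPKM table, in edgeR, in limma-voom and with replicates 2 and 3 only, and 0 to 1 with 1 library left out. The call that was lost is that of Slc2a1, and the cause was not tested. No gene of the 10 was called lower under any alternative run. The median log2 fold change of the 10 genes was 0.56 when scaled to total reads outside the mitochondrial chromosome, where the median of all genes was 0.15, and 0.29 with replicates 2 and 3 only. It was 0.26 to 0.51 with 1 library left out, lowest without control 1. Mpc2 changed sign with that scaling (0.048) and with 1 library left out, where it was -0.22 to 0.045. The ratios kept their direction under every alternative run. Of the pathway lists, Adm alone was called with quantile normalization and in the FPKM table, Ddit4 alone with replicates 2 and 3 only, and G6pdx and Ddit4 without control 3.

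Replicate numbers are shared between genotypes in the labels. Deviations of same-numbered libraries from their group means correlated at 0.53, 0.02 and 0.31 for numbers 1, 2 and 3, so the numbers were not taken to pair the libraries. With the replicate block, Slc2a1 had an adjusted p of 0.015 and Slc16a3, Ddit4, Slc2a12 and Adm were called as well. Control 1 correlated best with ILK-K5 1, but controls 2 and 3 did not correlate best with their own number. Control 1 was at -0.45 and -0.32 with ILK-K5 2 and 3, and control 3 at -0.55, 0.50 and 0.31 with ILK-K5 1 to 3. Controls 1 and 3 thus correlated above 0 only with libraries that share their name ending, while control 2 was at -0.06 to 0.07. In the study, control mice were littermates of the mutants, and which libraries share a litter is not known here. Precision is limited by 3 libraries per genotype, and for genes near 10 counts by depth.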
